A study of Mus musculus with 24 samples.

Results

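The expression of 34 genes of microglia was followed in the hippocampus, cortex and cerebellum of mice after removal of the olfactory bulbs. The genes were given as a list and matched by symbol to the Ensembl identifiers of the count files; all 34 were found among the 55487 genes of each file. Of these, 10 mark the homeostatic state, 11 are general microglial and complement genes, and 13 belong to the programme described in disease-associated microglia. The libraries came from wild-type mice, with tissue and operation read from the labels of each library. The olfactory bulbectomy group held 4 hippocampus, 3 cortex and 2 cerebellum libraries, and the sham-operated group held 5 of each tissue. All mice had undergone an operation, so the sham group controls for surgery and there was no unoperated group. The age and sex of the mice, the time since the operation, and whether tissues bearing 1 replicate number came from 1 mouse are details that the labels do not state. Nothing in the labels says that replicates were pooled or split, so the p-values measure the spread between these libraries.

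Microglia are the resident macrophages of the brain. Their survival depends on the receptor Csf1r, and in the healthy brain they express sensors such as P2ry12, Tmem119 and the fractalkine receptor Cx3cr1 under the transcription factor Sall1. Around amyloid plaques and dying cells, microglia lower these homeostatic genes and raise a set that includes Cst7, Lpl, Itgax, Clec7a, Spp1, Axl and cathepsins. Part of this rise depends on the receptor Trem2 and its adaptor Tyrobp. The title of the series relates bulbectomy to Alzheimer's disease, which makes these genes a natural readout of the design.

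Microglial RNA was present in every library, and none of the 34 genes was at 0 reads in any of the 24. Assigned reads numbered 8145624 to 20230673 in 22 libraries, 3255661 in hippocampus sham 1 and 138963332 in hippocampus sham 4. A level of 3 reads, taken as the floor, corresponded to 0.0216 to 0.921 CPM, the unit of all levels here, which relates reads of a gene to the scaled size of its library. Hippocampus sham 1 and 2 carried high levels of striatal neuron genes, and the summed level of 8 such genes ranged from 174 to 264 CPM in bulbectomy hippocampus and from 122 to 2645 CPM in sham hippocampus. Genes of thalamus and habenula summed to 315 to 530 CPM in bulbectomy hippocampus and 89.5 to 357 CPM in sham hippocampus, with 4 of 8 past the test as higher; the part of such regional tissue in the members' values was not tested. Among markers of other immune cells, Ly6c2 and Plac8 made up most of the monocyte and neutrophil sum, while the neutrophil genes S100a8, S100a9 and Retnlg averaged 0.156, 0.150 and 0.0620 CPM in bulbectomy hippocampus and 0.463, 0.562 and 0.191 CPM in sham hippocampus.

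Levels between genes were compared as CPM per kb of exon. C1qa, a subunit of the complement initiator C1q made in the brain mostly by microglia, had the highest level of the list in sham hippocampus, 375 ± 167 CPM per kb, and in sham cortex, 318 ± 83.03 CPM per kb (SD, n = 5 each). In sham cerebellum it averaged 145 ± 79.9 CPM per kb (SD, n = 5) and stood behind the lysosomal protease genes Ctsb, at 188 ± 32.8 CPM per kb, and Ctsd, at 162 ± 45.9 CPM per kb. These cathepsins are made by many brain cell types besides microglia. The mean was above 100 CPM per kb for 5 members in sham hippocampus, 5 in sham cortex and 4 in sham cerebellum. At the other end, 2 members in sham hippocampus, 3 in sham cortex and 6 in sham cerebellum averaged below 1 CPM per kb. Clec7a, the receptor dectin-1, averaged 0.542 ± 0.368 CPM per kb in sham hippocampus, 0.445 ± 0.112 in sham cortex and 0.496 ± 0.309 in sham cerebellum (SD, n = 5 each).

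**Figure D1:**
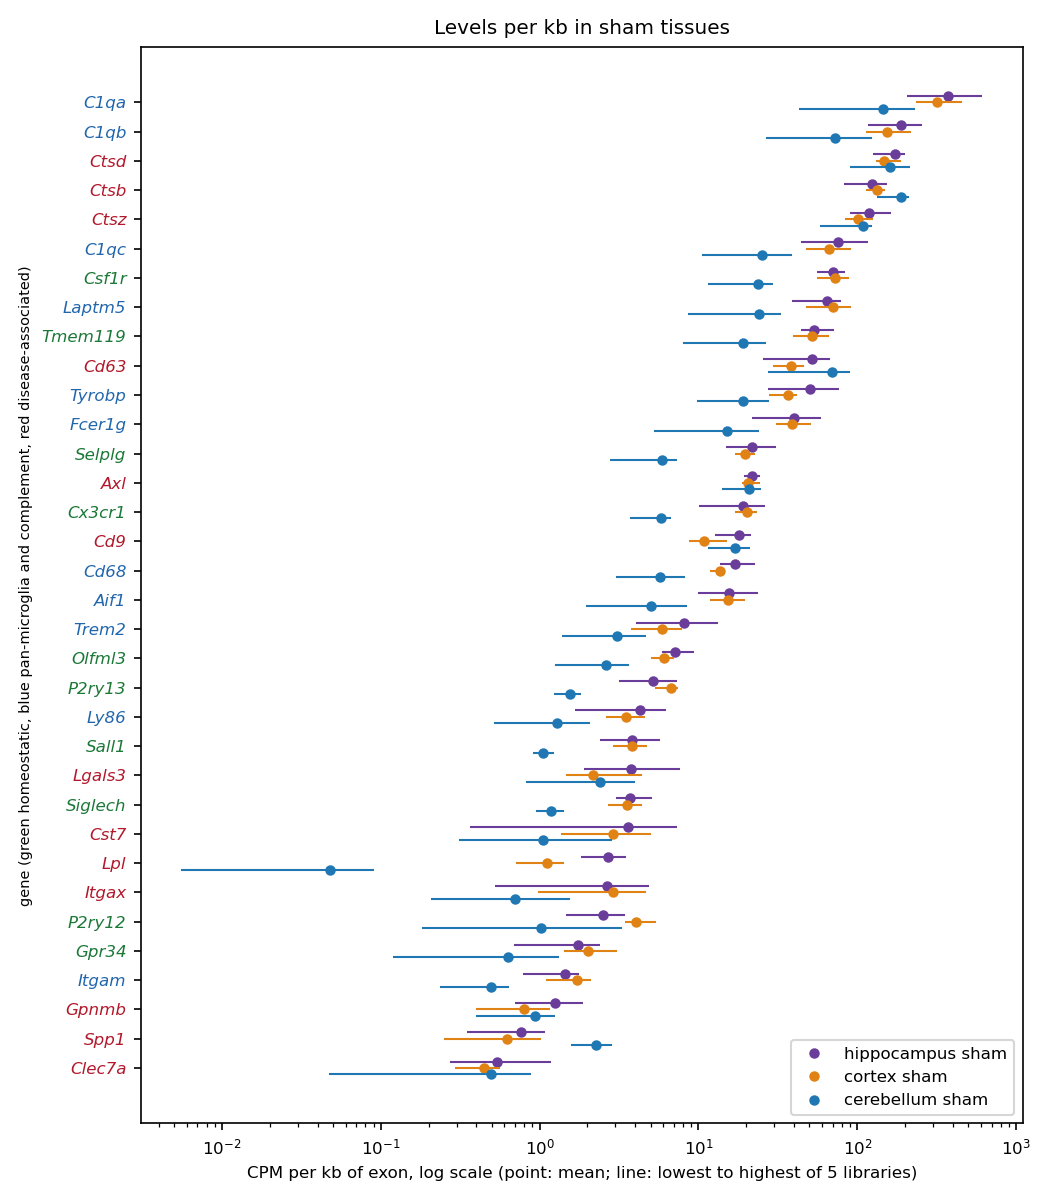
Level of the 34 microglia genes in sham libraries as CPM per kb of exon on a log axis, with the mean as a point and a line from the lowest to the highest of 5 libraries for hippocampus, cortex and cerebellum. C1qa leads in hippocampus and cortex, most homeostatic and general microglial genes lie lower in cerebellum, and Lpl is far lower there, at 0.0475 CPM per kb.

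Neighbours in this order overlapped among the leading genes: in sham hippocampus the ranges of C1qb, Ctsd, Ctsb and Ctsz all met. The purinergic receptor gene P2ry12, often used to stain microglia, stood low at 2.498 ± 0.798 CPM per kb in sham hippocampus and 4.045 ± 0.807 in sham cortex (SD, n = 5 each). Its exons have a GC content of 39.4%, and those of Gpr34, at 1.74 ± 0.739 CPM per kb in sham hippocampus, 36.8%, the lowest of the 34. C1qa and Tmem119 have the highest, both 59.5%. The part of base composition in this order was not tested.

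Several members share exon bases with another gene, so their counts are less certain. Itgam shares 68.7% of its exon bases with Gm49368 on the same strand, Ctsd 34.4% with Gm49369 and Spp1 18.8% with Gm42793. On the opposite strand, Csf1r shares 15.1% with Hmgxb3, Ctsb 12.8% with Fdft1 and Cd9 10.7% with Gm26728.

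The sham libraries were compared between tissues to describe where the list is high before any effect of bulbectomy. In sham hippocampus against sham cerebellum, 22 of the 34 genes were higher and 2 lower at an adjusted p under 0.05 (edgeR's quasi-likelihood test, Benjamini-Hochberg over 15142 genes), where 15.5% and 12.9% of all genes were called higher and lower. In sham cortex against sham cerebellum, 23 were higher and 2 lower, where 16.8% and 17.9% of all genes were called. The median log2 fold change of the members was 1.49 and 1.46, against -0.05 and -0.06 over all genes. The general microglial and complement genes were higher in 11 of 11 cases in both comparisons. In cortex against cerebellum C1qa was lost without cortex sham 2, cortex sham 4 or cerebellum sham 3 (adjusted p up to 0.0698 in edgeR), Trem2 without any of these or cortex sham 5 (up to 0.0744), and C1qb without cortex sham 4 (0.0563). Of the homeostatic genes, 9 of 10 were higher in hippocampus and 10 of 10 in cortex, P2ry12 being the exception in hippocampus. Gpr34 in hippocampus was lost when any of 6 libraries was left out (adjusted p up to 0.0918 in edgeR). The number of members called in either direction was 22 to 26 for hippocampus and 21 to 28 for cortex over all alternatives. Over all genes the calls numbered 3718 to 6027 and 4590 to 7743. Of the 13 disease-associated genes, edgeR called only Lpl and Itgax higher in either comparison. Spp1 and Ctsb were lower in hippocampus, and Spp1 and Cd63 lower in cortex. DESeq2 called 3 of the 13 higher and 2 lower in hippocampus, and 2 higher and 4 lower in cortex. The 2 comparisons share the cerebellum libraries.

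Siglech, a lectin receptor restricted in the brain to microglia, had 10.6, 17.3, 10.2, 12.6 and 11.9 CPM in sham hippocampus, against 4.81, 3.21, 4.18, 4.13 and 3.59 CPM in sham cerebellum. Sham cortex had 13.2, 9.08, 10.8, 11.7 and 14.9 CPM, again above every cerebellum library. The log2 fold change was 1.72 ± 0.21 for hippocampus against cerebellum (adjusted p = 1.06e-05) and 1.66 ± 0.21 for cortex against cerebellum (adjusted p = 1.15e-05; edgeR, as are all adjusted p-values with no other tool named). Selplg, the P-selectin ligand, had 63.4, 131, 89.8, 87.4 and 94.6 CPM in sham hippocampus, against 11.8, 31.3, 21.98, 30.97 and 30.2 CPM in sham cerebellum, and the groups did not meet (log2 fold change 1.95 ± 0.24, adjusted p = 1.12e-05). P2ry13, a purinergic receptor gene beside P2ry12 on chromosome 3, had 18.6, 13.4, 17.6, 18.7 and 16.8 CPM in sham cortex, against 4.58, 3.13, 4.06, 3.77 and 4.06 CPM in sham cerebellum. Its difference, 2.20 ± 0.23 on the log2 scale, was past the threshold (adjusted p = 1.08e-06), and no cortex library fell within the cerebellum range.

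Lpl, lipoprotein lipase (chr8:68880491-68907448, plus strand), differed most. It had 36.9, 18.96, 19.97, 36.7 and 28.4 CPM in sham hippocampus, 11.3, 7.46, 12.7, 11.9 and 14.9 CPM in sham cortex, and 0.917, 0.261, 0.312, 0.943 and 0.0579 CPM in sham cerebellum. In the cerebellum this rested on 12, 3, 5, 13 and 1 reads. The log2 fold change was 5.90 ± 0.48 for hippocampus against cerebellum (adjusted p = 1.11e-07) and 4.64 ± 0.47 for cortex against cerebellum (adjusted p = 8.28e-07). Lpl is also expressed by neurons and vascular cells, and which cells carried it here was not tested. Itgax, the integrin CD11c, had 8.85, 23.4, 2.51, 18.7 and 10.4 CPM in sham hippocampus, 9.88, 22.6, 4.72, 19.7 and 12.7 CPM in sham cortex, and 0.993, 2.09, 1.94, 7.47 and 4.23 CPM in sham cerebellum. Its libraries spread widely and met between tissues, with a log2 fold change of 2.01 ± 0.60 for hippocampus against cerebellum (adjusted p = 0.0182), which was lost without hippocampus sham 2 (adjusted p = 0.0533).

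Spp1, osteopontin, ran the other way. It had 1.77, 0.578, 0.837, 1.44 and 1.68 CPM in sham hippocampus, 0.412, 0.908, 0.818, 1.68 and 1.34 CPM in sham cortex, and 3.97, 3.74, 4.68, 3.699 and 2.61 CPM in sham cerebellum. Every cerebellum library was above every other sham library, and the log2 fold change was -1.51 ± 0.38 for hippocampus against cerebellum (adjusted p = 0.00577) and -1.75 ± 0.37 for cortex against cerebellum (adjusted p = 0.00145). Ctsb, the lysosomal protease cathepsin B, had 496, 937, 696, 884 and 706 CPM in sham hippocampus, against 800, 1128, 1271, 1229 and 1267 CPM in sham cerebellum (log2 fold change -0.55 ± 0.18, adjusted p = 0.0272). Sham cortex had 689, 803, 809, 904 and 795 CPM of Ctsb, which edgeR did not call against cerebellum. Cd63, a tetraspanin of late endosomes, had 119, 169, 160, 150 and 108 CPM in sham cortex, against 101, 329, 295, 272 and 275 CPM in sham cerebellum (log2 fold change -0.76 ± 0.28, adjusted p = 0.0469). Sham hippocampus had 93.8, 217, 248, 157 and 234 CPM of Cd63, which did not pass (-0.36 ± 0.28, adjusted p = 0.387). Cerebellum sham 1 was the low one in both genes. Ctsb was lost when any of 6 libraries was left out and Cd63 when any of 8 was.

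The remaining disease-associated genes did not pass the test between tissues in edgeR. Nearest to it in cortex was Cd9, another tetraspanin, at -0.58 ± 0.23 against cerebellum on the log2 scale (adjusted p = 0.0631 by edgeR and 0.0312 by DESeq2). Axl, a receptor for dying cells, differed by 0.13 ± 0.16 in hippocampus against cerebellum and by 0.06 ± 0.16 in cortex against cerebellum on the log2 scale. Ctsd and Ctsz, both cathepsins, differed by 0.16 ± 0.20 and 0.21 ± 0.21 in hippocampus against cerebellum and by -0.04 ± 0.20 and less than 0.01 in cortex against cerebellum. Clec7a, Gpnmb and Lgals3 lay between 0.20 and 0.73 in hippocampus against cerebellum and between -0.13 and -0.06 in cortex against cerebellum, none past the threshold. Cst7, cystatin F, was higher by 1.90 ± 0.74 in hippocampus without passing the test (adjusted p = 0.0659). In hippocampus and cerebellum the sham libraries of 1 replicate number deviated together, which does not show that they pair. With that number as a block, Cst7 and P2ry12 passed as well (adjusted p = 0.0181 and 0.0119). In that fit 26 of 34 members were called, where 35% of all genes were, against 28.4% without the block.

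P2ry12 had 7.97, 6.01, 3.71, 8.76 and 5.35 CPM in sham hippocampus, 10.5, 9.34, 8.81, 9.05 and 13.8 CPM in sham cortex, and 8.41, 1.65, 0.749, 1.74 and 0.463 CPM in sham cerebellum. Cerebellum sham 1 alone was at the level of the other tissues. The difference of cortex against cerebellum was 2.06 ± 0.58 (log2, adjusted p = 0.0107), and 3.26 without cerebellum sham 1. That library was the lowest of its tissue in 22 of the 34 members, among them 9 of 11 general microglial and complement genes, yet for P2ry12, Gpr34 and Siglech it was the highest of the 7 cerebellum libraries. Without it, 26 members were called in either comparison with the cerebellum and the median fold changes were 1.34 and 1.24. Over all genes 39.1% were then called for hippocampus and 50.2% for cortex, against 28.4% and 34.7% with that library.

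Of 29 further microglia genes tested, 23 were higher in hippocampus and 20 in cortex against cerebellum, none lower; they include Spi1, which encodes the myeloid transcription factor PU.1 (log2 fold changes of 1.48 in hippocampus and 1.403 in cortex), Irf8, its partner (1.67 and 1.55), and Ptprc, the leukocyte antigen CD45 (1.497 and 2.19). Of 13 genes of TREM2 and CSF1R signalling, 8 were higher in each comparison, with Syk, the kinase below Tyrobp, at 1.23 and 1.27. Csf1r has 2 ligands, and of these Il34 was higher at 1.54 and 1.92. The neuronal genes Cx3cl1 and Cd200, whose products restrain microglia, were higher at 2.75 and 1.06 in hippocampus and at 3.15 and 1.36 in cortex. Cerebellar granule and Purkinje cell genes were lower in 8 of 8 cases in both, with medians of -5.87 and -5.90, and oligodendrocyte precursor genes were higher in 6 of 6 and 5 of 6. In tissue RNA, fewer microglia among other cells and less RNA per microglial cell cannot be told apart.

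**Figure D2:**
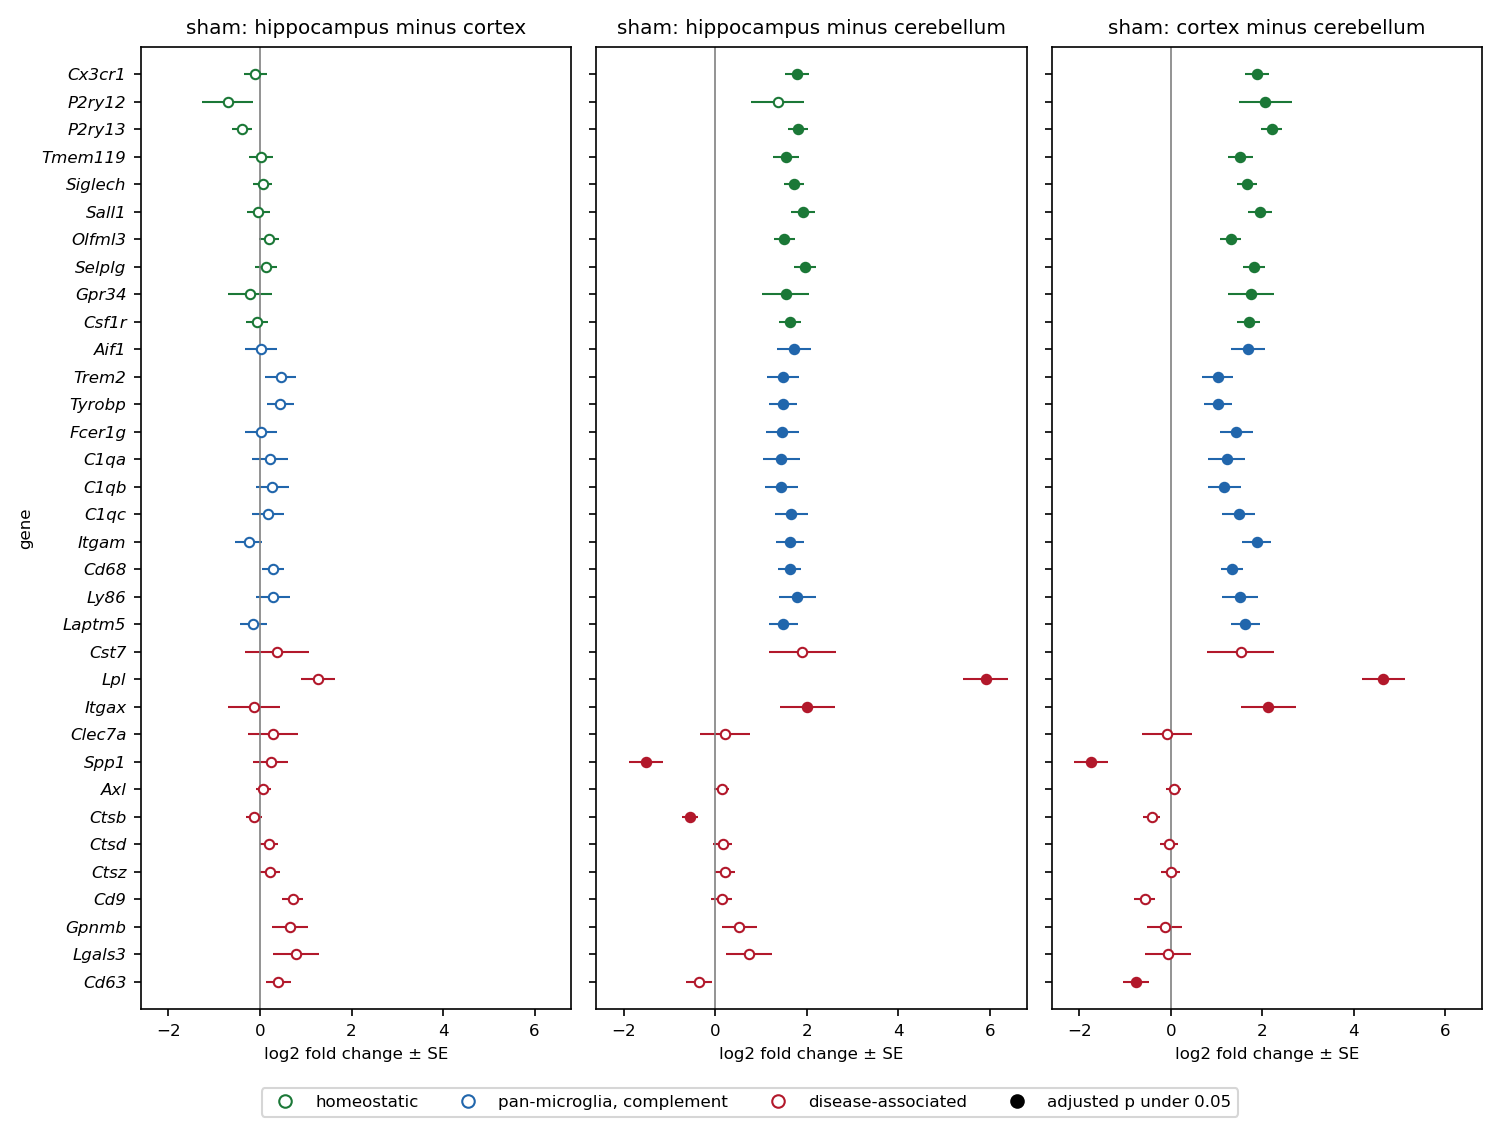
Log2 fold change with its SE for each of the 34 genes between sham tissues, 5 libraries each, filled where the adjusted p is under 0.05; green is homeostatic, blue general microglial and complement, red disease-associated. No gene is filled for hippocampus against cortex, the green and blue genes lie between 1.02 and 2.20 in both comparisons with the cerebellum, and the red genes spread from -1.75 to 5.90.

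The promoters of the members were read for the core of the PU.1 motif, GAGGAAG, on either strand. RefSeq windows of 300 bases (250 before and 50 after each start, GRCm38.p6) were at hand for 26 members; those not in the table are Tmem119, Selplg, Gpr34, Csf1r, Tyrobp, C1qa, Lpl and Ctsb. The motif was present for 8 of the 26, Axl, C1qc, Cd63, Itgam, Laptm5, P2ry13, Spp1 and Trem2, in 1 window of each. Some genes have several windows: 26.7% of the 30 windows of the members held the motif, and 13.6% of all 32851 windows did. Members with the motif went in both directions, and those without it were not compared. C1qc was higher in hippocampus and cortex than in cerebellum (log2 fold changes of 1.66 and 1.48), and Axl was called in neither. P2ry13, Laptm5, Itgam and Trem2 were also higher in both, while Spp1 was lower in both and Cd63 lower in cortex. Windows of these 6 genes are shown for that contrast, 5′ to 3′ on the strand of the gene, with the motif or its reverse complement CTTCCTC in capitals.
P2ry13, chr3:59210833-59211132, minus strand: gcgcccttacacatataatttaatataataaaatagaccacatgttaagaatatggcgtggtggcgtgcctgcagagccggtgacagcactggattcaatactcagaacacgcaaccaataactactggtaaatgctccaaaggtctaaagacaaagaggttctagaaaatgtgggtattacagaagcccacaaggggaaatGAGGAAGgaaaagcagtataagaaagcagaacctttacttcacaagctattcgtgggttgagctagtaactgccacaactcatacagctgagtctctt
Laptm5, chr4:130913066-130913365, plus strand: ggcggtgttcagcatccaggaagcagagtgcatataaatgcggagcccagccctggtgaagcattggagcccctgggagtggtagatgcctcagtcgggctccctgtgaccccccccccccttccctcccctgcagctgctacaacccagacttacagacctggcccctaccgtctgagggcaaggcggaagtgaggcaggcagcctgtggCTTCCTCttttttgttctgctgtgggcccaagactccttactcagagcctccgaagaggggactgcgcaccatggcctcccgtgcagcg
Itgam, chr7:128062390-128062689, plus strand: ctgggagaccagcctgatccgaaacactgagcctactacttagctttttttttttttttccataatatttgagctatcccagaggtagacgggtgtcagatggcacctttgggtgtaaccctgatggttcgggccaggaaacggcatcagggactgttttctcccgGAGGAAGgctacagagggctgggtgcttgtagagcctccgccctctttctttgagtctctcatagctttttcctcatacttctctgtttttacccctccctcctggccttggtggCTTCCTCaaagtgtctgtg
Trem2, chr17:48346151-48346450, plus strand: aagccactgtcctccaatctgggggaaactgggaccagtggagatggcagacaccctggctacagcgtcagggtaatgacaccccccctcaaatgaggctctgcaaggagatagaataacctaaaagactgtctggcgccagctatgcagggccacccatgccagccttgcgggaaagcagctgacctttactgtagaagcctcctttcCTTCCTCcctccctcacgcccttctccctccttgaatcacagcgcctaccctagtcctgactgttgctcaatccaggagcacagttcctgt
Spp1, chr5:104434861-104435160, plus strand: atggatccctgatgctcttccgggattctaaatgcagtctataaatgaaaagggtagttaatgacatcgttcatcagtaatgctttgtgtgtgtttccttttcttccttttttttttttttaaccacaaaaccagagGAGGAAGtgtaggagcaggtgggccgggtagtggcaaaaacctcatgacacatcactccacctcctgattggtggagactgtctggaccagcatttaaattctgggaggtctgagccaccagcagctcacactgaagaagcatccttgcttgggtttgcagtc
Cd63, chr10:128909095-128909394, plus strand: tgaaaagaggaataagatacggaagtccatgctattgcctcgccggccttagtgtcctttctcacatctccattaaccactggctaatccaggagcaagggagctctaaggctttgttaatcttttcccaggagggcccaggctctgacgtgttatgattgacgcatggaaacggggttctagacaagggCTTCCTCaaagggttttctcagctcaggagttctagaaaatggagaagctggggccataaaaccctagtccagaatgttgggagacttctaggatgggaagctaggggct
The match began at position -48 in P2ry13, -39 in Laptm5, -41 in Trem2, -113 in Spp1 and -60 in Cd63, where 1 is the first transcribed base, and Itgam had 2 matches. The palindrome TCACGTGA, known from the promoters of lysosomal genes as the CLEAR element, was in 0.974% of all windows and in those of Ctsd and Siglech among the members. These matches describe letters in the windows and not binding.

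Sham hippocampus and sham cortex differed little. No member was called, 0 higher and 0 lower, where 2.09% and 1.21% of all genes were called, 2 had an unadjusted p under 0.05 (13.5% of all genes), and DESeq2 called 2 (6% of all genes). The median was 0.19 (log2), against 0.02 over all genes, and was -0.03 without hippocampus sham 2. The 2 genes were Lpl, higher by 1.26 ± 0.37 on the log2 scale (adjusted p = 0.0834), and Cd9, a tetraspanin also abundant in oligodendrocytes, higher by 0.72 ± 0.23 (adjusted p = 0.117). No hippocampus library of Lpl fell within the cortex range given above. Cd9 had 43.7, 43.6, 28.7, 41.1 and 25.9 CPM in sham hippocampus, against 20.6, 18.04, 17.7, 22.6 and 31.1 CPM in sham cortex, and only cortex sham 5 reached the hippocampus values. Sham cerebellum had 43.2, 29.7, 23.4, 42.4 and 34.4 CPM of Cd9. Oligodendrocyte genes were higher in hippocampus in 8 of 8 cases, 7 past the threshold, at a median of 1.46; their part in the level of Cd9 was not tested. Gpnmb, P2ry13, P2ry12 and Itgam differed by 0.66 ± 0.39, -0.40 ± 0.22, -0.71 ± 0.56 and -0.25 ± 0.30. Itgam, the integrin CD11b, had 7.38, 8.79, 3.95, 8.89 and 7.35 CPM in sham hippocampus, against 9.37, 9.21, 5.54, 8.21 and 10.6 CPM in sham cortex, and the tissues overlapped.

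After bulbectomy, no member passed the test in the hippocampus. Of the 34, 20 had a fold change above 0 and 14 below, with a median of 0.19 against 0.02 over all genes, and 0 were called, where 1.55% of 13985 genes were. With DESeq2 0 were called as well, against 6.97% of all genes. An unadjusted p under 0.05 was reached by 2 members, Selplg and Gpnmb, where 20% of all genes reached it, and no member had all bulbectomy libraries above or all below the sham libraries, where 4.06% and 5.42% of all genes did. By class the median was -0.03 for the homeostatic, 0.31 for the general microglial and complement, and 0.01 for the disease-associated genes.

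The values turned on 1 library. Hippocampus bulbectomy 3 was the highest of the 9 hippocampus libraries in 21 of the 34 members, in 4 of 10 homeostatic, 9 of 11 general microglial and complement, and 8 of 13 disease-associated genes. Lgals3, the galactose-binding lectin galectin-3, had 6.34, 8.69, 60.9 and 4.97 CPM in bulbectomy hippocampus, against 3.54, 14.2, 4.19, 5.43 and 7.66 CPM in sham hippocampus (log2 fold change 1.56 ± 0.85, adjusted p = 0.345). Fcer1g, an adaptor of Fc receptors, had 42.6, 32.1, 137 and 36.7 CPM in bulbectomy hippocampus, against 18.9, 51.3, 33.8, 33.98 and 37.3 CPM in sham hippocampus (log2 fold change 0.86 ± 0.47, adjusted p = 0.343). C1qa had 340, 286, 749 and 293 CPM in bulbectomy hippocampus, against 261, 638, 212, 488 and 351 CPM in sham hippocampus (log2 fold change 0.13 ± 0.40, adjusted p = 0.878). In all 3 genes the other bulbectomy libraries lay within the sham range, and sham 2 was the highest sham library.

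Without bulbectomy 3 the members' median in the hippocampus was -0.12, of opposite sign. The same library held the highest summed level of monocyte and neutrophil genes: 65.1, 29.3, 215 and 10.2 CPM in bulbectomy hippocampus, against 43.4, 104.5, 16.02, 77.5 and 51.1 CPM in sham hippocampus. Summed lymphocyte genes were at 35.1, 41.5, 90.7 and 15.9 CPM in bulbectomy hippocampus, against 30.1, 95.95, 5.38, 48.5 and 30.7 CPM in sham hippocampus. Bulbectomy 3 and sham 2 were the highest on both sums, and 2 of 8 monocyte and neutrophil genes were at 0 reads in bulbectomy 3. Genes of border-associated macrophages summed to 13.8 to 25.8 CPM in bulbectomy hippocampus and 11.2 to 24.9 CPM in sham hippocampus. Whether blood cells contributed to the high members in these libraries was not tested.

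**Figure D3:**
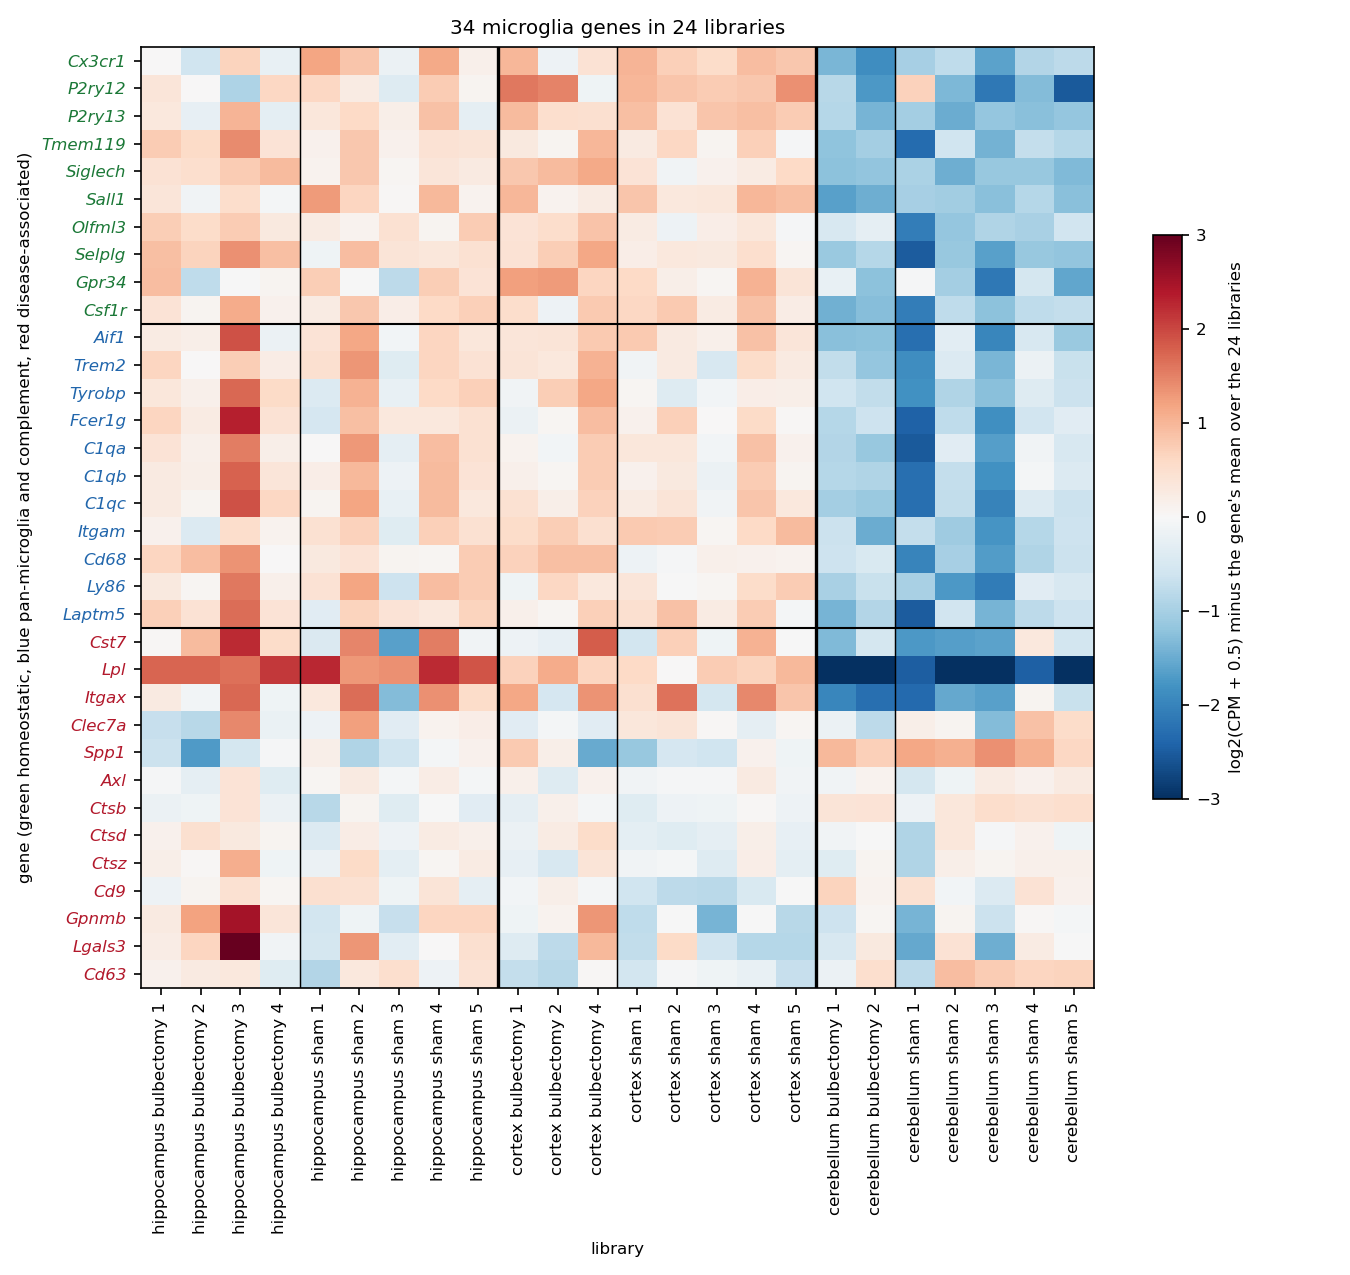
Level of the 34 genes in each of the 24 libraries, as log2(CPM + 0.5) minus the mean of the gene over all libraries, with bulbectomy left of sham within each tissue. The cerebellum columns are blue for the homeostatic and general microglial genes, hippocampus bulbectomy 3 is red for most genes below the homeostatic block, and cerebellum sham 1 is the bluest column.

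The members of smallest p in the hippocampus were Selplg, Gpnmb, Tmem119 and Cd68. Selplg had 129, 110, 180 and 129 CPM in bulbectomy hippocampus, against 63.4, 131, 89.8, 87.4 and 94.6 CPM in sham hippocampus, and sham 2 alone reached the bulbectomy values (log2 fold change 0.59 ± 0.22, adjusted p = 0.157). Gpnmb, a glycoprotein of lysosomes in lipid-laden macrophages, had 9.34, 18.1, 45.04 and 9.93 CPM in bulbectomy hippocampus, against 5.02, 6.94, 4.54, 12.3 and 12.2 CPM in sham hippocampus (log2 fold change 1.33 ± 0.52, adjusted p = 0.194). Its fold change was 0.58 without bulbectomy 3. Tmem119, a membrane protein used as a microglial marker, had 156, 138, 248 and 124 CPM in bulbectomy hippocampus, against 102, 164, 102, 125 and 122 CPM in sham hippocampus (log2 fold change 0.47 ± 0.23, adjusted p = 0.269). Cd68, a lysosomal glycoprotein of phagocytes, had 26.2, 32.1, 43.1 and 16.6 CPM in bulbectomy hippocampus, against 20.4, 22.3, 17.5, 17.3 and 28.7 CPM in sham hippocampus (log2 fold change 0.51 ± 0.26, adjusted p = 0.291). Both overlapped between groups, and their fold changes were 0.19 and 0.25 without bulbectomy 3.

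In the cortex, 21 members had a fold change above 0 and 13 below, with a median of 0.09 against 0.01 over all genes. None was called by edgeR, where 0.0202% of 14847 genes were, while DESeq2 called 1, Cd68, where it called 0.263% of all genes. An unadjusted p under 0.05 was reached by 7 members, all higher after bulbectomy, where 5.91% of all genes reached it: Cd68, Siglech, Selplg, Gpnmb, Olfml3, Tyrobp and Cd9. All bulbectomy libraries lay above all sham libraries for 3 members, Cd68, Siglech and Olfml3, where 2.19% of all genes did, and below for 0, where 1.4% did.

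Cd68 (chr11:69664213-69666153, minus strand) had 27.2, 31.3 and 31.5 CPM in bulbectomy cortex, against 14.8, 16.3, 18.5, 18.1 and 18 CPM in sham cortex, a clear gap between the groups. Its log2 fold change was 0.79 ± 0.17, with an adjusted p of 0.333 by edgeR and an adjusted p of 0.0086 by DESeq2. Siglech had 17.6, 19.3 and 22.2 CPM in bulbectomy cortex, against 13.2, 9.08, 10.8, 11.7 and 14.9 CPM in sham cortex, with no overlap (log2 fold change 0.70 ± 0.21, adjusted p = 0.687). Olfml3, a secreted matrix protein of microglia, had 45.4, 49.5 and 61.8 CPM in bulbectomy cortex, against 40.8, 30.8, 39.4, 43.03 and 33.1 CPM in sham cortex (log2 fold change 0.46 ± 0.17, adjusted p = 0.768). Here the gap was narrow.

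Selplg had 94.2, 116 and 155 CPM in bulbectomy cortex, against 79.7, 86.7, 85.3, 97.6 and 72.04 CPM in sham cortex, where sham 4 lay above the lowest bulbectomy library (log2 fold change 0.51 ± 0.17, adjusted p = 0.707). Gpnmb had 6.97, 8.27 and 19.9 CPM in bulbectomy cortex, against 4.32, 7.53, 2.58, 7.51 and 4.09 CPM in sham cortex (log2 fold change 1.135 ± 0.40, adjusted p = 0.711). Tyrobp had 22.6, 40.8 and 55.4 CPM in bulbectomy cortex, against 25.2, 18.6, 22.9, 28.01 and 27.7 CPM in sham cortex (log2 fold change 0.66 ± 0.25, adjusted p = 0.77). Cortex bulbectomy 4 was the highest library in these 3 genes and in 14 of the 34 members, and without it the median was -0.09. Without cortex bulbectomy 1, edgeR called 2 members, Cd68 (adjusted p = 0.0275) and Tyrobp (adjusted p = 0.0301). In that fit 573 of all 15103 genes were called, or 3.79%, against 0.0202% with the library. Monocyte and neutrophil genes summed to 14.1 to 45.3 CPM in bulbectomy cortex and 26.3 to 97.1 CPM in sham cortex, and lymphocyte genes to 12.45 to 41.3 CPM in bulbectomy cortex and 15.8 to 42.9 CPM in sham cortex. Gene by gene, all 6 monocyte and neutrophil genes tested in cortex were lower after bulbectomy, at a median log2 fold change of -1.21. By edgeR 3 had an unadjusted p under 0.05, where 5.91% of all genes did, and 0 were called. In cerebellum all 6 tested were lower as well, at a median of -1.62, with 3 under 0.05 (2.97% of all genes) and 0 called. In hippocampus only 2 of the 8 genes passed the count filter, and both were higher. Over all 8, with 0.5 reads added, the mean log2 CPM was -0.83 ± 0.79 in bulbectomy hippocampus (SD, n = 4). It was 0.09 ± 0.65 in sham hippocampus (SD, n = 5), so the 2 tested do not stand for the list.

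In the cerebellum, with 2 bulbectomy libraries, 12 members had a fold change above 0 and 22 below. The median was -0.06, the same as over all genes, 0 members were called by edgeR and 0 by DESeq2, and 0 had an unadjusted p under 0.05. Over all 15295 genes these shares were 0.0131%, 0.0805% and 2.97%. All bulbectomy libraries were above all sham libraries for Olfml3, Selplg and Cd68, where 6.02% of genes were, and below for Sall1, where 4.9% were. Cx3cr1, the receptor for the neuronal chemokine Cx3cl1, had 19.7 and 13.9 CPM in bulbectomy cerebellum, against 25.8, 30.4, 16.7, 28.1 and 30.1 CPM in sham cerebellum (log2 fold change -0.67 ± 0.32). Olfml3 had 24.1 and 28.2 CPM in bulbectomy cerebellum, against 7.72, 15.03, 18.05, 17.05 and 22.5 CPM in sham cerebellum (log2 fold change 0.70 ± 0.34). Sall1 had 3.58 and 4.13 CPM in bulbectomy cerebellum, against 5.88, 5.65, 4.81, 6.53 and 4.81 CPM in sham cerebellum (log2 fold change -0.55 ± 0.33). The gaps in Olfml3, Sall1, Selplg and Cd68 were small beside the spread of the 5 sham libraries. Cerebellum bulbectomy 1 had 31.8 CPM of Selplg, against 31.3 CPM in cerebellum sham 2. It had 10.6 CPM of Cd68, against 10.4 CPM in cerebellum sham 5. Itgax had 1.43 and 1.07 CPM in bulbectomy cerebellum, against 0.993, 2.09, 1.94, 7.47 and 4.23 CPM in sham cerebellum, which overlapped (log2 fold change -1.43 ± 0.79). Cx3cr1, Olfml3, Sall1 and Itgax all had an adjusted p of 0.9998 by edgeR.

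Set side by side, 8 of the 34 members were above 0 in all 3 tissues and 7 below, together 44.1%, where 55.1% of the 13513 genes tested in each tissue kept 1 direction. The tissues do not share libraries, though whether they share mice is not known. Cd68 differed by 0.51 ± 0.26 in hippocampus, 0.79 ± 0.17 in cortex and 0.64 ± 0.40 in cerebellum on the log2 scale. Selplg differed by 0.59 ± 0.22, 0.51 ± 0.17 and 0.46 ± 0.35 in the same order, and Olfml3 by 0.28 ± 0.18, 0.46 ± 0.17 and 0.70 ± 0.34. The others above 0 were Ctsb, Fcer1g, Gpnmb, Lgals3 and Tyrobp. Cx3cr1 lay lower, at -0.65 ± 0.33, -0.32 ± 0.24 and -0.67 ± 0.32, and so did Sall1, at -0.45 ± 0.28, -0.21 ± 0.27 and -0.55 ± 0.33. The others below 0 were Axl, Clec7a, Csf1r, Itgam and Itgax. The homeostatic class thus held genes of both signs after bulbectomy.

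In a comparison added after these values were seen, the mean of the 3 tissue effects was tested in a fit of all 24 libraries. With the libraries taken as independent, edgeR called 3 members, where 4.61% of 16564 genes were called: Cd68 (mean log2 fold change 0.64 ± 0.16, adjusted p = 0.0248), Olfml3 (0.48 ± 0.14, adjusted p = 0.0463) and Selplg (0.52 ± 0.15, adjusted p = 0.0471). Cx3cr1 averaged -0.55 ± 0.19 (adjusted p = 0.0896). When libraries of 1 operation and replicate number were allowed to correlate, in limma with voom, 0 members were called, where 1.47% of all genes were, and the adjusted p was 0.0635 for Cd68, 0.109 for Olfml3, 0.089 for Selplg and 0.202 for Cx3cr1. The same voom fit with independent libraries called 3 members, where 4.85% of all genes were called, again Cd68, Olfml3 and Selplg (adjusted p = 0.0203, 0.0361 and 0.0423).

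The bulbectomy effect was not shown to differ between tissues for any member. Of the 34, 0 were called in hippocampus against cortex, 0 in hippocampus against cerebellum and 0 in cortex against cerebellum (edgeR interaction contrasts over 16564 genes, of which 0% were called in each). Unadjusted, 0, 0 and 1 members had a p under 0.05, where 2.81%, 3.09% and 1.67% of all genes did. The 1 was Siglech, whose effect was larger in cortex than in cerebellum by 0.74 ± 0.33, short of the threshold after adjustment.

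**Figure D4:**
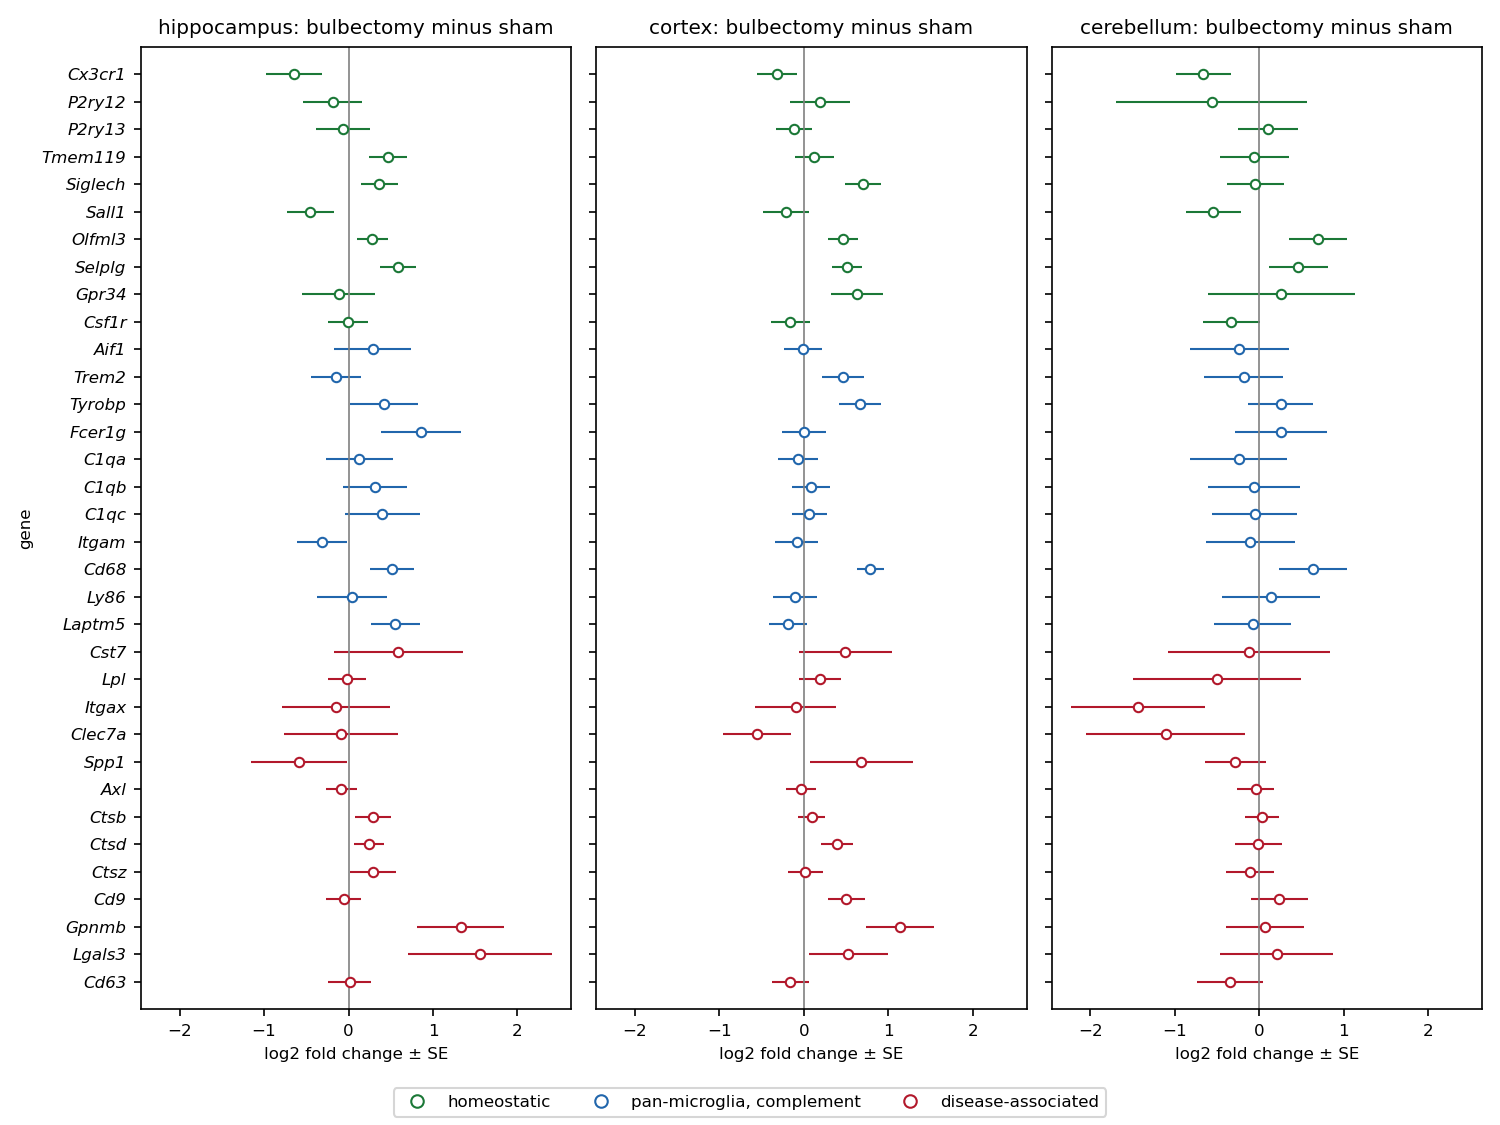
Log2 fold change of bulbectomy against sham with its SE for each of the 34 genes in hippocampus (4 against 5 libraries), cortex (3 against 5) and cerebellum (2 against 5); green is homeostatic, blue general microglial and complement, red disease-associated. All points are open because no adjusted p is under 0.05; Cd68, Selplg and Olfml3 lie right of 0 and Cx3cr1 and Sall1 left of 0 in each panel.

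**Figure D5:**
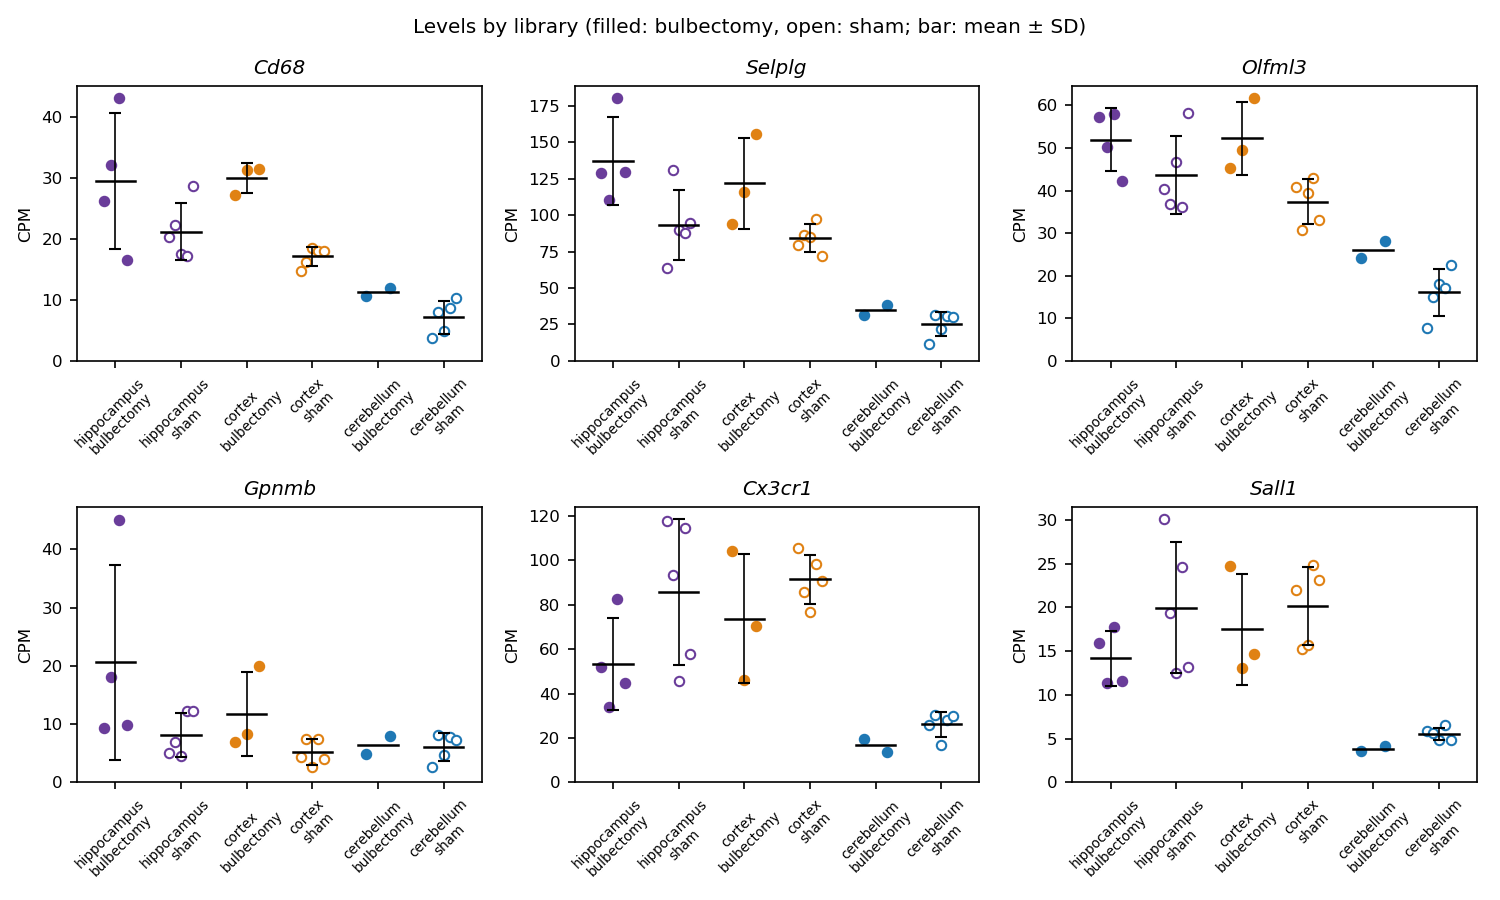
CPM of 6 genes in each library, filled for bulbectomy and open for sham, with a bar at the mean and whiskers of 1 SD except for the 2 bulbectomy cerebellum libraries. The groups are apart for Cd68 in cortex, where bulbectomy libraries lie between 27.2 and 31.5 CPM and sham libraries between 14.8 and 18.5 CPM, and overlap for all 6 genes in hippocampus.

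The genes that define the switch to the disease-associated state gave no common direction. Trem2, the lipid-sensing receptor, had 41.01, 26.4, 43.6 and 30.6 CPM in bulbectomy hippocampus, against 36.9, 65.8, 20.1, 41.3 and 35.4 CPM in sham hippocampus (log2 fold change -0.15 ± 0.29). In cortex it had 34.5, 32.6 and 54.7 CPM after bulbectomy, against 24.2, 31.6, 18.7, 38.8 and 31.5 CPM after sham (0.46 ± 0.25), and in cerebellum 15.3 and 11.4 CPM after bulbectomy, against 6.88, 19.5, 9.803, 23.1 and 16.3 CPM after sham (-0.19 ± 0.47). All 3 overlapped. Tyrobp, its adaptor, had 30.8, 27.2, 81.6 and 36.6 CPM in bulbectomy hippocampus, against 18.3, 50.9, 20.7, 37.1 and 40.3 CPM in sham hippocampus (0.42 ± 0.40, and -0.09 without bulbectomy 3). In cerebellum Tyrobp had 15.99 and 14.5 CPM after bulbectomy, against 6.57, 12.9, 9.93, 18.6 and 15.4 CPM after sham (0.25 ± 0.39).

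Cst7, a cathepsin inhibitor that is among the strongest induced genes of the disease-associated state, had 2.22, 4.65, 12.2 and 3.39 CPM in bulbectomy hippocampus, against 1.48, 6.82, 0.359, 7.22 and 1.99 CPM in sham hippocampus (log2 fold change 0.59 ± 0.76). Cortex had 1.91, 1.75 and 8.89 CPM after bulbectomy, against 1.34, 3.89, 1.95, 4.98 and 2.14 CPM after sham (0.49 ± 0.55), and cerebellum 0.574 and 1.36 CPM after bulbectomy, against 0.306, 0.348, 0.375, 2.83 and 1.33 CPM after sham (-0.12 ± 0.96). The spread between libraries exceeded any difference between groups. Itgax had 8.56, 6.61, 24.4 and 6.298 CPM in bulbectomy hippocampus, against the sham values given above (-0.15 ± 0.64), and 16.3, 4.77 and 18.4 CPM in bulbectomy cortex (-0.10 ± 0.48). Clec7a was near the floor, with 0.445, 0.367, 3.68 and 0.848 CPM in bulbectomy hippocampus, against 0.885, 3.12, 0.717, 1.16 and 1.26 CPM in sham hippocampus (-0.09 ± 0.68). Those bulbectomy values rest on 4, 3, 29 and 7 reads.

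Among the homeostatic genes, P2ry12 had 6.56, 5.02, 2.41 and 7.99 CPM in bulbectomy hippocampus, against the sham values given above (log2 fold change -0.19 ± 0.35), and was lowest in bulbectomy 3, where most members were highest. In cortex it had 15.9, 14.8 and 4.498 CPM after bulbectomy (0.19 ± 0.35), with bulbectomy 4 the lowest. In cerebellum it had 2.58 and 1.17 CPM after bulbectomy (-0.57 ± 1.13). Cx3cr1 had 51.9, 34.2, 82.5 and 44.7 CPM in bulbectomy hippocampus, against 118, 93.4, 45.7, 114 and 57.7 CPM in sham hippocampus, and the groups overlapped. In cortex Cx3cr1 had 104, 46.3 and 70.6 CPM after bulbectomy, against 105, 85.9, 76.9, 98.5 and 90.7 CPM after sham. Tmem119 had 114, 98.8 and 185 CPM in bulbectomy cortex, against 112, 143, 98.7, 154 and 91.3 CPM in sham cortex (0.12 ± 0.23), and 39.9 and 45.6 CPM in bulbectomy cerebellum, against 18.5, 61.6, 34.2, 56.7 and 50.8 CPM in sham cerebellum (-0.06 ± 0.41). The remaining homeostatic genes, P2ry13, Gpr34 and Csf1r, ranged from -0.33 to 0.63 over the 3 tissues, none past the threshold.

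The complement genes C1qa, C1qb and C1qc lie side by side on the minus strand (mm10), at chr4:136895917-136898803, chr4:136880129-136886187 and chr4:136889804-136893065. In cortex C1qa had 279, 242 and 440 CPM after bulbectomy, against 327, 328, 244, 472 and 283 CPM after sham (log2 fold change -0.07 ± 0.24), and in cerebellum 140 and 116 CPM after bulbectomy, against 44.9, 204, 81.8, 239 and 183 CPM after sham (-0.24 ± 0.58). C1qb and C1qc ranged from -0.07 to 0.40 over the 3 tissues. Of the other general genes, Aif1, which encodes the stain Iba1, differed by 0.29 ± 0.45 in hippocampus, -0.01 ± 0.22 in cortex and -0.24 ± 0.59 in cerebellum. Fcer1g differed by less than 0.01 in cortex and by 0.26 ± 0.55 in cerebellum, and Itgam, Ly86 and Laptm5 ranged from -0.32 to 0.56 over the 3 tissues. Of the disease-associated genes not yet given, Lpl, Axl, Ctsb, Ctsd, Ctsz, Cd9 and Cd63 lay between -0.50 and 0.50. Lgals3 differed by 0.52 ± 0.47 in cortex and 0.21 ± 0.67 in cerebellum, Gpnmb by 0.06 ± 0.46 in cerebellum, Clec7a by -0.55 ± 0.40 in cortex and -1.11 ± 0.94 in cerebellum, and Spp1 by -0.58 ± 0.57 in hippocampus, 0.68 ± 0.61 in cortex and -0.28 ± 0.36 in cerebellum.

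Genes around the list did not pass the test after bulbectomy either. Of further microglia genes, 0 of 27 were called in hippocampus, 0 of 29 in cortex and 0 of 29 in cerebellum; Golm1 and Cmtm7 had the smallest p, at -0.83 ± 0.30 and 0.91 ± 0.39 in hippocampus (adjusted p = 0.146 and 0.217). Of TREM2 and CSF1R signalling, 0 of 13 were called in each tissue, with Nfatc1 at 0.45 ± 0.24 in hippocampus and Grb2 at 0.32 ± 0.17 in cerebellum. Of further disease-associated genes, 0 of 19 were called in each tissue by edgeR, and Hif1a, the hypoxia-inducible factor, differed by -0.96 ± 0.30 in hippocampus (adjusted p = 0.107 by edgeR and 0.0382 by DESeq2). Capg, an actin-capping protein, differed by 1.06 ± 0.37 in hippocampus (adjusted p = 0.148). Complement genes other than C1q gave 0 of 11 in each tissue, with Cd59a at 0.73 ± 0.25 in cortex. Inflammatory cytokine genes gave 0 of 9 in hippocampus, 0 of 10 in cortex and 0 of 6 in cerebellum, with Cxcl10 at -1.21 ± 0.42 in cortex and Tgfb1 at 0.62 ± 0.24 in hippocampus.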

How the data were processed

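The deposited files give raw counts, as whole reads for 55487 Ensembl genes and 12 assignment totals per library; the totals entered neither library sizes nor tests. The submitters' processing notes name Trimmomatic, STAR, featureCounts and mm10 for the authors' pipeline, without versions, and the strand setting of the counting is not stated. Per the labels' protocols, polyA RNA of good integrity went into directional libraries. All 24 libraries were analysed.

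After filterByExpr and TMM scaling, edgeR 4.0.16 in R 4.3.3 gave two-sided robust quasi-likelihood tests, adjusted by Benjamini-Hochberg over all genes tested and called at an adjusted p under 0.05. Bulbectomy was set against sham within each tissue, sham tissues were compared in 1 fit of 15 libraries, and interactions were taken from 1 fit of 24. Errors of fold changes are standard errors of these fits. Levels are CPM with TMM factors over all 24 libraries. The scripts were tested on simulated data. Exon lengths, GC content and overlaps come from GENCODE M21, promoter windows from RefSeq (GRCm38.p6). Fits of bulbectomy against sham and between sham tissues were repeated in several ways. These were DESeq2 1.42.0, RLE scaling, no filter on low counts, a length and GC trend removed, a replicate block, all libraries together, and each library left out. Interactions were repeated with RLE scaling only. For the mean effect limma 3.58.1 served as the alternative, and no library was left out. Read floors cover counting error only.

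The members, lists and tests were chosen with earlier results of these data known. Given library by library were the 4 members of smallest p in each bulbectomy comparison, members of smallest p in each direction of each sham comparison (up to 3, Gpnmb as given for the bulbectomy), and P2ry12, Tmem119, Cx3cr1, Trem2, Tyrobp, C1qa, Cst7, Clec7a and Itgax; Lgals3 and Fcer1g in the hippocampus and Olfml3 in the cortex were added after their values were seen. Of each further list, the 2 genes of smallest p after bulbectomy are given, except 1 that is not reported here; those named for the sham tissues were chosen for their role.

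Sham hippocampus and cerebellum libraries of 1 number deviated together, with correlations of 0.256 to 0.481 in all 5 pairs. Hippocampus sham 4, however, correlated best with cerebellum sham 1. Bulbectomy and sham cerebellum libraries of 1 number, which cannot share a mouse, correlated at 0.328 and 0.248. The correlations therefore cannot show that the numbers pair libraries, and the block is given as an alternative only. In the other comparisons of 3 or more pairs, not all correlations were above 0.1. For sham cortex against sham cerebellum they were 0.223 to 0.433 for numbers 1 to 4, each the best match, and -0.162 for number 5. For sham hippocampus against sham cortex they were 0.26 to 0.507 for numbers 1 to 4 and -0.115 for number 5. There numbers 1 to 3 were the best match.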

Additional observations from a re-analysis of the deposited data

Results flagged for a closer look

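In groups of 4 or 5 libraries, 16 of 136 sets of CPM values had 1 library standing apart from the rest, where chance gives about 1 in 20 sets, or 6.8. Of the 16, 9 were hippocampus bulbectomy 3, the highest of 4 bulbectomy libraries. It held 62.4 CPM of Aif1 (others 14.2 to 19.1), 137 of Fcer1g (32.1 to 42.6), 749 of C1qa (286 to 340), 480 of C1qb (159 to 180) and 30.1 of Ly86 (10.04 to 12.004). It also held 24.4 CPM of Itgax (6.30 to 8.56), 3.68 of Clec7a (0.367 to 0.848), 1179 of Ctsb (781 to 813) and 60.9 of Lgals3 (4.97 to 8.69). These genes come from 1 library and are not independent of each other.

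Among sham libraries, hippocampus sham 2 was high in Clec7a, with 3.12 CPM against 0.717 to 1.26 in the others. Cortex sham 4 was high in Axl, with 123 CPM against 94.5 to 99.6, and in Ctsd, with 445 CPM against 307 to 335. Cortex sham 2 was high in Lgals3, with 8.18 CPM against 2.74 to 3.46. Cerebellum sham 1 was high in P2ry12, with 8.41 CPM against 0.463 to 1.74, and low in Ctsz, with 83.7 CPM against 166 to 179, and in Cd63, with 101 CPM against 272 to 329. Without cortex sham 4, 21 members were called in sham cortex against sham cerebellum, against 25 with it. Over all genes 30.3% were called without it and 34.7% with it.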

How the results depend on the processing

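Among the members' counts and medians recomputed under alternatives, 184 were within 1.5 times the count given, or within the spread of the median given, and 7 moved. Several medians near 0 changed sign within that spread. The median after bulbectomy was -0.12 in hippocampus without bulbectomy 3 and -0.02 with the trend below removed, against 0.19. In cortex it was -0.06 with the replicate block, -0.02 with the trend removed and -0.09 without bulbectomy 4, against 0.09. In cerebellum it was 0.14 with the block and up to 0.05 without 1 library, against -0.06. For sham hippocampus against sham cortex it was -0.03 without hippocampus sham 2, against 0.19. Over all genes, the calls after bulbectomy numbered 217 in hippocampus (30 to 955 under alternatives), 3 in cortex (1 to 573) and 2 in cerebellum (0 to 36), and those for sham hippocampus against cortex 500 (284 to 895). In the cortex after bulbectomy DESeq2 called 1 member, and leaving out 1 library gave 0 to 2. For sham hippocampus against sham cortex DESeq2 and the fit of all 24 libraries called 2, and the replicate block and removal of a length and GC trend called 1. For the mean effect over tissues, limma called 0 with correlated libraries and 3 with independent ones. The cause of these shifts was not tested.

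The numbers of the replicate block were not shown to pair libraries. Within tissues the block turned the sign of C1qa in hippocampus (-0.0016) and of Tmem119 in cortex (-0.094). It also turned Tmem119 (0.25), Trem2 (0.11) and C1qa (0.33) in cerebellum, and none of these was called. Removing the length and GC trend turned C1qa in hippocampus (-0.25) and Tmem119 in cortex (-0.029). Leaving out hippocampus sham 1 and 2 together turned Trem2 (0.17), Clec7a (0.36) and Itgax (0.12).

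Leaving out 1 library at a time, uncalled log2 fold changes after bulbectomy crossed 0 for these genes. In hippocampus P2ry12 ran from -0.42 to 0.051, Trem2 from -0.39 to 0.12, Tyrobp from -0.089 to 0.63, C1qa from -0.34 to 0.39, Cst7 from -0.15 to 1.004, Clec7a from -1.37 to 0.22 and Itgax from -0.85 to 0.19. In cortex P2ry12 ran from -0.13 to 0.55, Tmem119 from -0.19 to 0.30, C1qa from -0.37 to 0.10, Cst7 from -0.67 to 0.86 and Itgax from -0.41 to 0.29. In cerebellum P2ry12 ran from -1.25 to 0.71, Tmem119 from -0.25 to 0.073, Trem2 from -0.44 to 0.036, C1qa from -0.47 to 0.00099 and Cst7 from -0.85 to 0.68. Where 1 bulbectomy cerebellum library remained, it was assumed to vary like the sham libraries. The 2 to 4 bulbectomy libraries a tissue and the read depth of hippocampus sham 1 limit what these comparisons can show.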
